A study of Rattus norvegicus with 18 samples.

Results

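Growth factors and muscle-derived hormones that respond to physical activity were followed in the hypothalamus of stressed and exercised rats. The set holds 10 genes: Bdnf, Cntf, Gdnf, Igf1, Vegfa and Fndc5, which encode secreted factors or their precursors; the receptors Ntrk2 and Igf1r; and the intracellular regulators Ppargc1a and Sirt1. Members were chosen by name, and their probes were found through the transcript accession of each probe. Of the 10 genes, 9 had a probe with 21 probes in all among the 45598 on the array, and no probe was matched to Sirt1, which is not analysed here.

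Hypothalamic RNA came from 18 male Wistar rats, 9 weeks old, with 1 array per rat and 6 rats per group. The labels give an age of 5 weeks at the start. Control rats received neither intervention. Stress rats were restrained on 5 days of each week, 1 to 1.5 h per session, for 3 weeks. Rats of the third group received that restraint and also ran voluntarily in a wheel for 4 weeks, from 1 week ahead of the first restraint. No group ran without restraint, so the exercise comparison holds only in stressed animals. By its title the series concerns exercise, chronic stress and hypertension. The rats were killed by ether and decapitation and the hypothalamus was dissected as a whole. In such tissue a smaller number of cells of a type and less RNA per cell cannot be told apart.

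BDNF is a neurotrophin that acts through TrkB, the product of Ntrk2, and IGF-1 acts through the receptor tyrosine kinase encoded by Igf1r. Both ligands, and VEGF-A, are widely studied as mediators of the effects of running on the rodent brain. Fndc5 encodes the membrane precursor of irisin, and in mouse muscle and neurons its expression is placed downstream of PGC-1α, the transcriptional co-activator encoded by Ppargc1a. CNTF and GDNF support the survival of neurons, and Sirt1 encodes a deacetylase that acts on PGC-1α.

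RefSeq promoter windows (assembly GRCr8) were found for 9 of the 10 genes, in 15 windows, 6 of them for Bdnf; Ntrk2 was the exception. The 250 bases upstream of the start are printed for 3 windows: that of Igf1, the only member with a probe past the test, and those of Ppargc1a and Bdnf, whose transcription is known to respond to the factor CREB. Capitals mark the CREB core motif TGACG or its reverse complement CGTCA, and the full palindromic site TGACGTCA, which contains both.
Igf1, chr7:24172282-24172531, plus strand: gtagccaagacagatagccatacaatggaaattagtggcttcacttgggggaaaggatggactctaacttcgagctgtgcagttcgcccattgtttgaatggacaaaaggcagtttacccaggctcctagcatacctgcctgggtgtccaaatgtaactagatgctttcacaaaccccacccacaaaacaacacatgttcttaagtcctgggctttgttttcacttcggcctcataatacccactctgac
Ppargc1a, chr14:63634058-63634307, plus strand: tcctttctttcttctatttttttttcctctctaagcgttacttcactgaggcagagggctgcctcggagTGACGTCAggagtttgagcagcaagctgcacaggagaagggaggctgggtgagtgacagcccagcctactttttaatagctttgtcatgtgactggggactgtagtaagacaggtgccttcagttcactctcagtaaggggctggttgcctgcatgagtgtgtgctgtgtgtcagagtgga
Bdnf, the fourth of its windows, chr3:116637608-116637857, plus strand: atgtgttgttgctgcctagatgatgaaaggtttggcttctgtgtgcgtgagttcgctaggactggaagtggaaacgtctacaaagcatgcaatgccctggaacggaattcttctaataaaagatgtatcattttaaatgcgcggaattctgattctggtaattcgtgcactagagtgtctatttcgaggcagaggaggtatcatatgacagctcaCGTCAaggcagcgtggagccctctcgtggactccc

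The full site in the Ppargc1a window begins 181 bases before the start, and 1.59% of 33469 rat windows of this length hold it on either strand. The printed Bdnf window holds the core motif on the minus strand, beginning 35 bases before the start. The other Bdnf windows lack it. The core motif occurs in 4 of the 15 member windows, those of Gdnf and Sirt1 included, and in 18.2% of all windows. Neither motif is in the Igf1 window. These matches describe letters only and show no binding.

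Levels are log2 of the processed intensity minus the 75th percentile of the same array, so that 0 is that percentile; they can be compared between arrays but not between probes. Probes of a gene are numbered from the brightest to the dimmest. The arrays lay on 5 slides. Slides 1 to 3 held control 1 to 6 and stress 1 to 4, slides 4 and 5 held the remaining rats: slide 4 stress 5 and 6 with exercised rats 1 and 2, and slide 5 exercised rats 3 to 6 only. Control and stress arrays never shared a slide. All control arrays lay on slides 1 to 3 and all exercised arrays on slides 4 and 5. Exercise against control therefore cannot be told apart from slide set, except through the stress rats, which lay in both sets. Slides 2 and 4 were scanned on day 1, and slides 1, 3 and 5 on day 2. Day 1 thus held control 3 to 6, stress 5 and 6 and exercised rats 1 and 2. The stress rats of slides 3 and 4 had different levels of several genes below. Values inside a slide set, or the stress means by slide, therefore stand beside the pooled member differences between exercised and stress rats. On each array 63.6% to 77.7% of probes were well above background. All 8 marker genes of hypothalamic neurons were well above background on every array. So were all 6 striatal markers, the 3 thalamic markers on the array and 2 of 4 choroid plexus markers. Of 5 pituitary markers, 1 was well above background on every array and 1, Prl, on none. The mean level of 6 oligodendrocyte markers was 2.84 to 3.02 on slides 1 to 3 and 3.07 to 3.24 on slides 4 and 5, without overlap; its part in the differences below was not tested.

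Of the 21 probes, 20 were well above background on all 18 arrays and were tested, covering 8 genes. The exception was the single Gdnf probe, which was well above background on 2 control, 2 stress and 0 exercised arrays and had levels between -10.05 and -6.96. No difference is given for Gdnf, whose signal was at the limit of detection.

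With limma, fitted to all tested probes and adjusted by Benjamini-Hochberg, 0 of 20 member probes passed an adjusted p of 0.05 between stress and control. The background was 0% of 31289 probes, while 3694 of those and 1 of the 20 had an unadjusted p under 0.05. Between exercised and stress rats 1 of 20 member probes passed, against a background of 3.75% (1173 probes, a count that ran from 1 to 4633 when 1 rat was left out, the highest without stress 5). Between exercised and control rats, whose arrays lay in different slide sets, 1 of 20 passed, against 26.1% (8152 probes, 7 with slide set as a covariate). The same probe of Igf1 passed in both. When each gene was represented by its brightest probe, 0 of 8 genes passed in any of the 3 comparisons. At an unadjusted p under 0.05 there were 7 of 20 member probes for exercise against stress, 35.0% against 24.3% of all tested probes, and 5 of 20 for exercise against control, 25.0% against 37.5%.

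**Figure D1:**
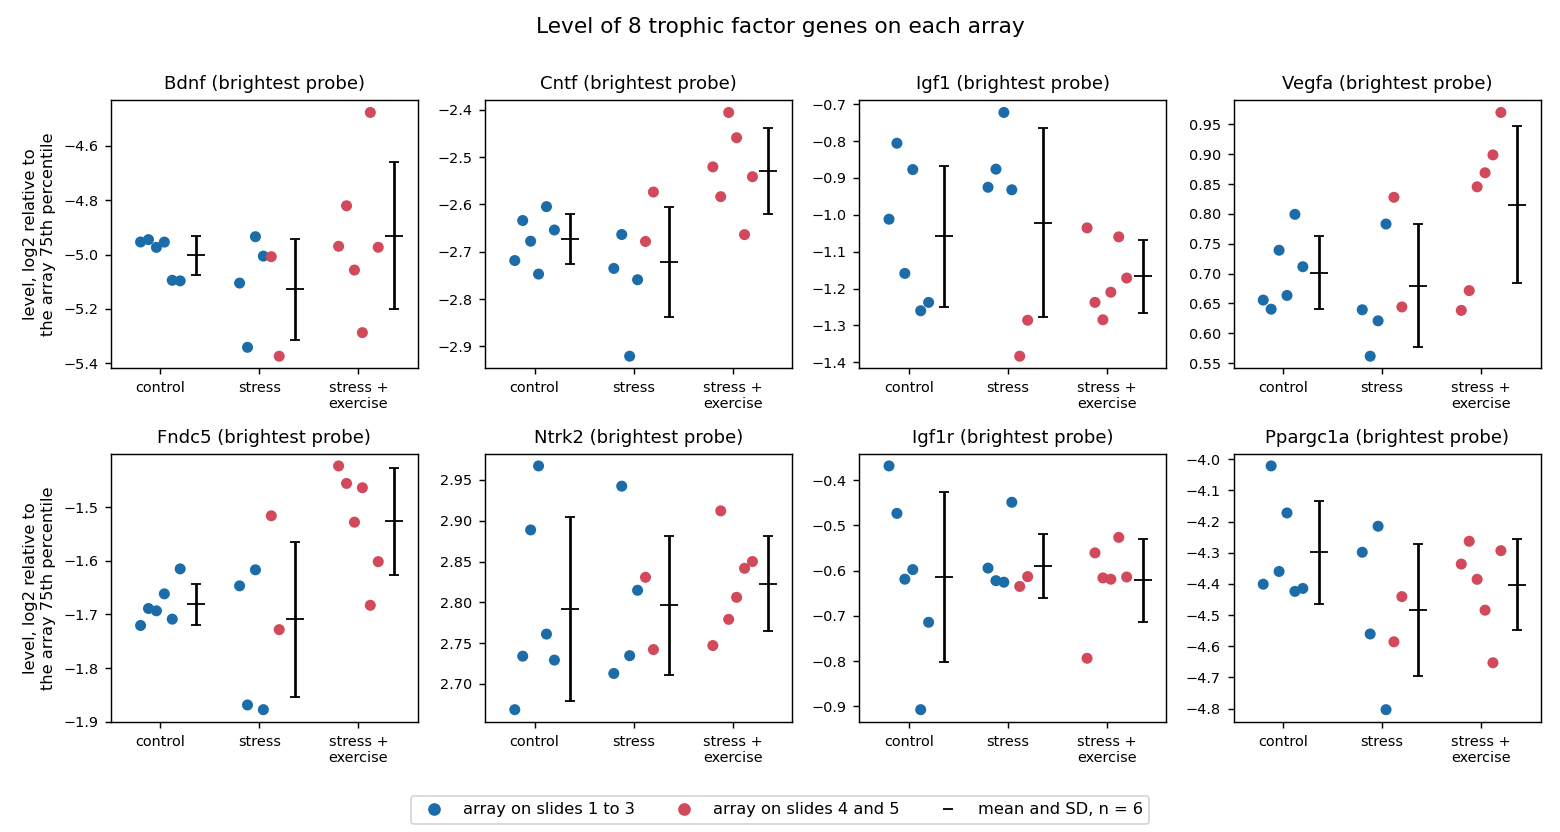
Level of the brightest probe of 8 genes on each array (vertical axis, log2 relative to the array's 75th percentile; each panel has its own range). Points are single rats, coloured by slide set, and bars give the mean and SD of 6 rats; the groups overlap in all 8 panels.

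Igf1 was measured by 5 probes, and they did not give 1 answer. Probe 2, an average of up to 10 spots per array, had levels in exercised rats of -2.37 (lowest), -2.24 (median) and -2.06 (highest). In stress rats they were -2.66, -2.55 and -2.38, and in control rats -2.70, -2.51 and -2.32. Every exercised rat lay above every stress rat, whereas exercised and control rats overlapped. The mean was -2.25 ± 0.11 with exercise, -2.54 ± 0.09 with stress and -2.50 ± 0.15 in control (SD, n = 6 each). Igf1 by this probe rose with exercise over stress by 0.29 (SE 0.07), a ratio of 1.23 (limma adjusted p = 0.0406). Against control it rose by 0.25 (SE 0.07; limma adjusted p = 0.0123), a ratio of 1.19. For scale, the SD among its spots within an array had a median of 0.0879. Groups that did not overlap were found for 1.48% of all tested probes in the comparison with stress.

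The call for probe 2 did not hold in most fits with 1 rat left out. Leaving out 1 rat at a time, the difference from stress stayed between 0.26 and 0.33, and it passed in 3 of 18 such fits (adjusted p 0.0166 to 0.109). The 3 that passed lacked control 2, stress 5 or stress 6. With slide set as a covariate the difference was 0.30 and the limma adjusted p was 0.645. On slides 4 and 5 alone, exercised rats were above stress 5 and 6 by 0.30 (exact permutation p = 0.0714, the smallest that 6 against 2 rats allow; adjusted p = 0.357). The difference from control passed in all 18 fits without 1 rat. It was 0.26 with slide set as a covariate (limma adjusted p = 0.551). Among arrays of the second scan day, control 1 and 2 against exercised rats 3 to 6, it was 0.08 (limma adjusted p = 0.607).

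The brightest Igf1 probe ran the other way in the pooled fit. Its levels with exercise were -1.29 (lowest), -1.19 (median) and -1.04 (highest), and with stress -1.38, -0.93 and -0.72. The exercised mean was lower by 0.15 than the stress mean (difference -0.15, SE 0.11; limma adjusted p = 0.430). The stress rats were not alike: those of slide 3 had a mean of -0.86 (n = 4) and those of slide 4 a mean of -1.33 (n = 2). Against the rats of slide 4, the exercised rats were higher by 0.17, without overlap. In the same slide set the differences of all 5 Igf1 probes were above 0, between 0.17 and 0.33, and 4 of the 5 had no overlap; 9.35% of all tested probes had none there, and 5.05% had none with exercise higher. Probes 3, 4 and 5 differed by 0.15, 0.27 and 0.09 in the pooled comparison, and none passed.

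Within slide sets the level of Igf1 probe 2 followed that of probe 3 across arrays (Pearson r = 0.89 over 10 arrays of slides 1 to 3 and 0.92 over 8 arrays of slides 4 and 5). With probe 1 it had r = 0.04 and 0.40. These values are descriptions over arrays that share slides. Probes 1 and 5 carry 1 accession of the gene, probe 2 another, and probes 3 and 4 yet another; whether they report the same transcripts was not tested.

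**Figure D2:**
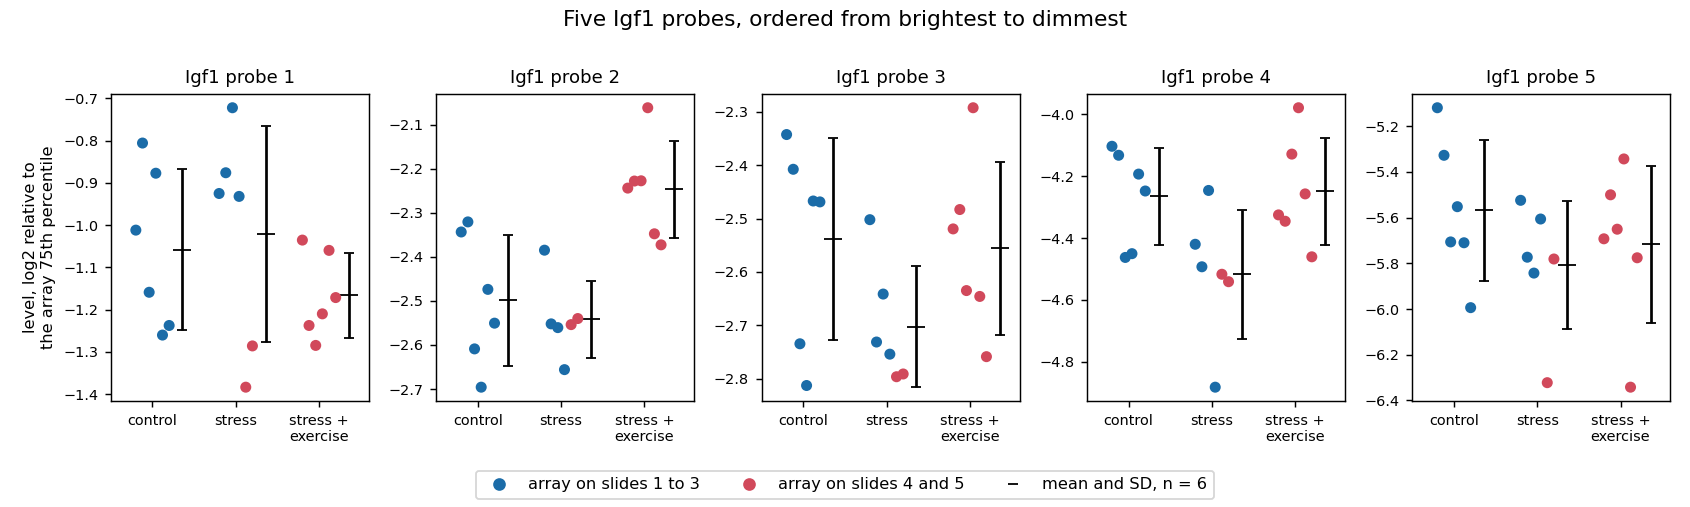
Level of each of 5 Igf1 probes on each array (vertical axis, log2 relative to the array's 75th percentile; panels have different ranges). Points are single rats coloured by slide set and bars give mean and SD of 6 rats; in probe 2 all exercised rats lie above all stress rats, and in probe 1 the stress rats of slide 4 lie below those of slide 3.

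Stress against control gave Igf1 differences of 0.04, -0.04, -0.16, -0.25 and -0.24 for probes 1 to 5, none past the test (limma adjusted p between 0.377 and 0.921). Igf1r, the receptor, was at -0.61 ± 0.19 in control, -0.59 ± 0.07 in stress and -0.62 ± 0.09 with exercise by its brightest probe (SD, n = 6 each). Exercise differed from stress by -0.03 (SE 0.07) there, and by 0.0024 on slides 4 and 5. Its other probe had group means of -4.40, -4.47 and -4.36 in the same order. For that probe exercise exceeded stress by 0.11, and by 0.04 on slides 4 and 5. Across arrays the 2 Igf1r probes had r = -0.21 on slides 1 to 3 and -0.11 on slides 4 and 5.

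Bdnf had 1 probe. Its levels were -5.10 (lowest), -4.96 (median) and -4.95 (highest) in control, -5.37, -5.06 and -4.93 in stress, and -5.29, -4.97 and -4.48 with exercise. The 3 groups overlapped, and the control rats had the narrowest range. Exercise exceeded stress by 0.20 (SE 0.11; limma adjusted p = 0.276), and by 0.26 on slides 4 and 5 (exact permutation p = 0.214). Stress was below control by a difference of -0.13 (SE 0.11; limma adjusted p = 0.662), and exercise differed from control by 0.07 (SE 0.11), or by -0.018 without exercised rat 5. The single probe cannot part transcripts that begin at the 6 start windows of the gene.

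Ntrk2, the receptor of BDNF, had 5 probes. The brightest, an average of up to 10 spots, was at 2.79 ± 0.11 in control, 2.80 ± 0.09 in stress and 2.82 ± 0.06 with exercise (SD, n = 6 each). The exercise difference from stress was 0.03 (SE 0.05; limma adjusted p = 0.800), and 0.04 on slides 4 and 5. The other probes had exercised means of 2.49, 0.25, -0.52 and -5.03 against stress means of 2.48, 0.37, -0.65 and -5.14, and all overlapped between groups. On slides 4 and 5 their differences from stress were -0.04, -0.01, 0.07 and -0.02. No Ntrk2 probe passed in any comparison. The 5 probes carry 3 transcript accessions, and which form of the receptor each reports was not tested.

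Vegfa, which encodes the main angiogenic growth factor, had 3 probes, all higher with exercise than with stress in the pooled fit. The brightest was at 0.64 (lowest), 0.86 (median) and 0.97 (highest) with exercise and at 0.56, 0.64 and 0.83 with stress; in control it was 0.64, 0.69 and 0.80. The groups overlapped. The 4 exercised rats above all stress rats, at 0.85 to 0.97, were those of slide 5; on slide 4 the exercised rats were at 0.64 and 0.67 and the stress rats at 0.83 and 0.64. Differences from stress were 0.14, 0.21 and 0.32 for probes 1 to 3, with limma adjusted p of 0.177, 0.172 and 0.156. On slides 4 and 5 they were 0.08, -0.0028 and -0.02, and on slide 4 alone, 2 rats against 2, they were -0.081, -0.099 and -0.21. For probe 3 the stress rats of slide 3 had a mean of -5.41 and those of slide 4 a mean of -4.91, next to -4.93 with exercise. Against control the brightest probe differed by 0.11 (SE 0.06; limma adjusted p = 0.181). Probes 2 and 3 differed from control by 0.23 and 0.21 (limma adjusted p = 0.0742 and 0.271). With slide set as a covariate the exercise differences from control were 0.03, -0.09 and -0.29 for probes 1 to 3. On slides 1 to 3, probe 3 was below control in stress by a difference of -0.27, with an exact permutation p of 0.0190 and an adjusted p of 0.381 over 20 probes.

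**Figure D3:**
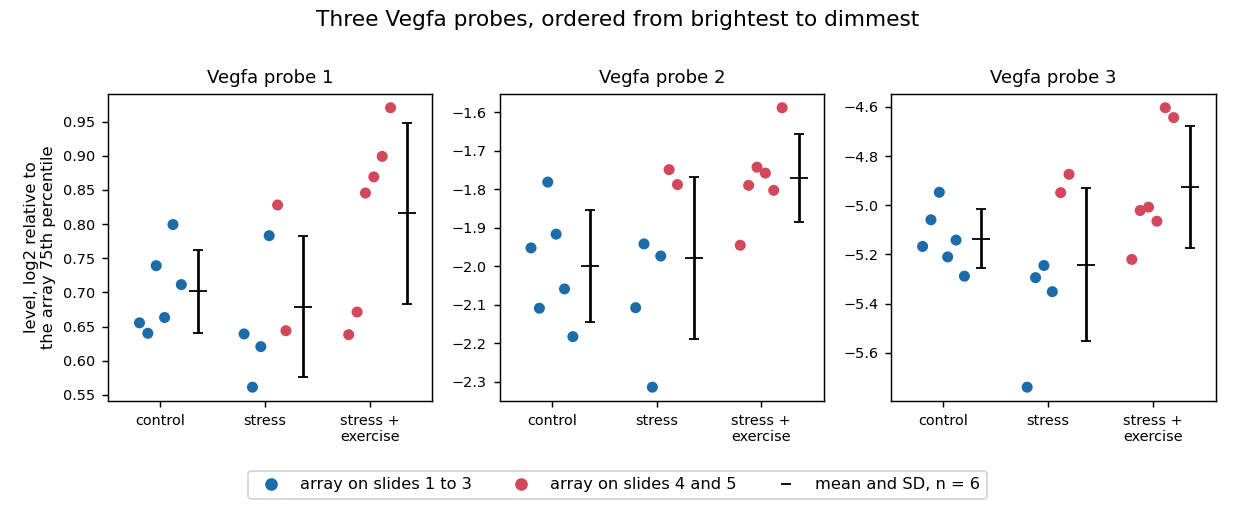
Level of each of 3 Vegfa probes on each array (vertical axis, log2 relative to the array's 75th percentile; panels have different ranges). Points are single rats coloured by slide set and bars give mean and SD of 6 rats; in probe 3 the stress rats of slide 4 lie among the exercised rats and above the other stress rats.

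Cntf, the ciliary neurotrophic factor gene, had 1 probe, with levels of -2.66 (lowest), -2.53 (median) and -2.41 (highest) in exercised rats. Stress rats had -2.92, -2.71 and -2.57, and control rats -2.75, -2.67 and -2.60. All 6 exercised rats lay above the stress mean and above the control mean, but the groups overlapped. The difference from stress was 0.19 (SE 0.05; limma adjusted p = 0.0552) and from control 0.14 (SE 0.05; limma adjusted p = 0.0611), both short of the threshold. On slides 4 and 5 the difference from stress was 0.10 (exact permutation p = 0.214). With slide set as a covariate the difference from control was 2.5e-05 (SE 0.09). Stress differed from control by -0.05 (SE 0.05).

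Fndc5, the irisin precursor gene, had 2 probes to the same accession. The brighter was at -1.68 (lowest), -1.50 (median) and -1.42 (highest) with exercise, -1.88, -1.69 and -1.52 with stress, and -1.72, -1.69 and -1.62 in control. Exercised rats had the highest median, and the groups overlapped. The difference from stress was 0.18 (SE 0.06; limma adjusted p = 0.0839) and from control 0.16 (SE 0.06; limma adjusted p = 0.0693). With slide set as a covariate the brighter probe differed from control by 0.025 (SE 0.10). In the pooled fit the other probe differed by -0.07 (SE 0.07) from stress and by -0.10 (SE 0.07) from control. On slides 4 and 5 the differences from stress were 0.10 and 0.06 for the 2 probes. There the 2 probes moved together over 8 arrays (r = 0.92, against 0.57 over the 10 arrays of slides 1 to 3).

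Ppargc1a had 1 probe, at -4.42 (lowest), -4.38 (median) and -4.02 (highest) in control, -4.80, -4.50 and -4.22 in stress and -4.65, -4.36 and -4.26 with exercise. Stress differed from control by -0.19 (SE 0.10; limma adjusted p = 0.464), and the groups overlapped. Exercise differed from stress by 0.08 (SE 0.10; limma adjusted p = 0.653), by 0.11 on slides 4 and 5, and from control by -0.10 (SE 0.10). Of 4 skeletal muscle marker genes, 3 were well above background on every array. The mean level of the 4 was -6.38 to -5.79 on slides 1 to 3 and -7.05 to -6.12 on slides 4 and 5.

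**Figure D4:**
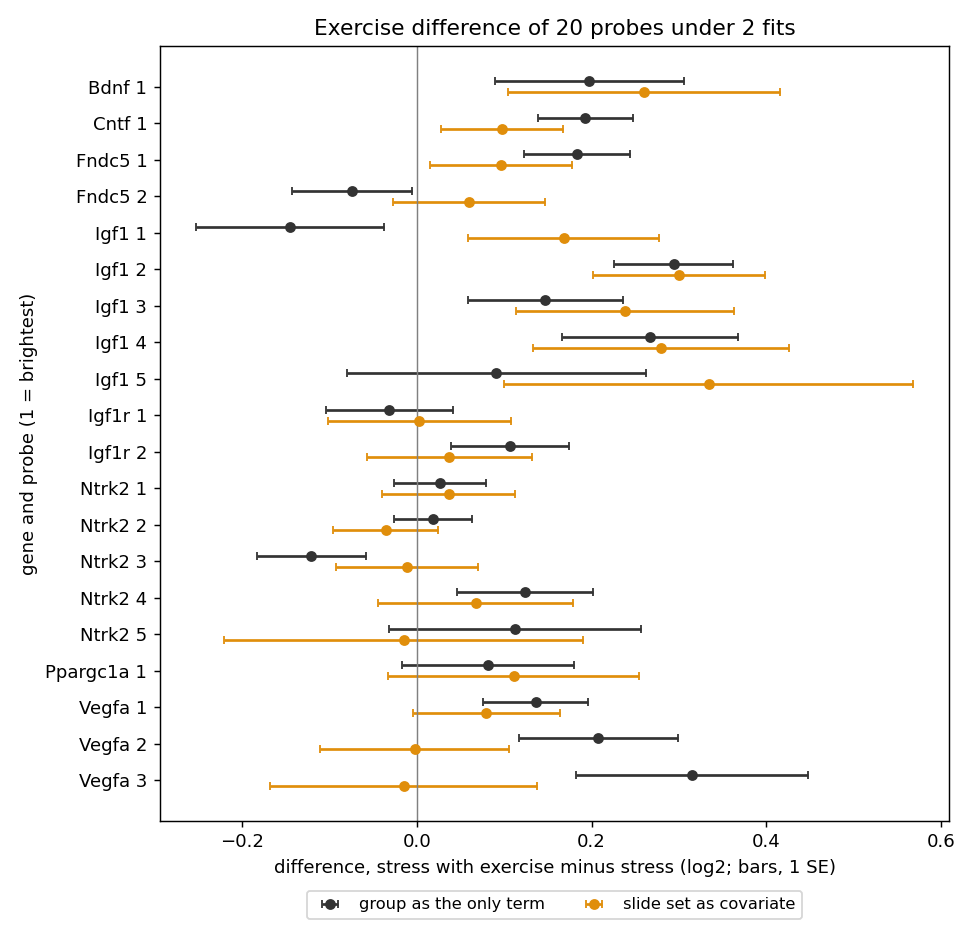
Difference between exercised and stress rats for each of 20 tested probes (horizontal axis, log2; vertical axis, gene and probe number). Points with bars of 1 SE are shown for the fit with group alone and for the fit with slide set as a covariate; with the covariate the 3 Vegfa probes lie nearer to 0 and all 5 Igf1 probes lie above 0.

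Over the 20 tested probes the median difference was -0.04 for stress against control, 0.12 for exercise against stress and 0.03 for exercise against control. The medians over all tested probes were -0.02, 0.02 and 0.0046. Exercise was above stress for 16 of 20 probes in the pooled fit and for 15 of 20 on slides 4 and 5, where the lowest exact permutation p was 0.0714 and the lowest adjusted p 0.357. On slides 1 to 3, stress was below control for 15 of 20 probes. Probes of 1 gene are not independent, and the 2 pooled exercise comparisons share the exercised rats.

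No pair of members passed adjustment in a correlation across rats. Within each slide set 5 pairs were examined, each gene by its brightest probe, giving 10 correlations by permutation. The lowest p was for Ppargc1a and Fndc5 on slides 1 to 3 (Pearson r = 0.75, permutation p = 0.0166, adjusted p = 0.166; Spearman rho = 0.61, permutation p = 0.0669; r = 0.74 without the 2 arrays farthest from the median of Ppargc1a). On slides 4 and 5 the same pair had r = 0.40 (exact permutation p = 0.313). Bdnf and Ntrk2 had r = -0.30 and 0.56, and Igf1 and Igf1r 0.54 and -0.25, on slides 1 to 3 and on slides 4 and 5 (adjusted permutation p between 0.488 and 0.615). Without the 2 arrays farthest from the median of the ligand these became 0.15 and 0.48, and -0.14 and 0.39, so 3 of the 4 changed sign and rest on those arrays.

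Among 12973 genes, the one whose level was most like that of Igf1 probe 1, by the smaller of the 2 within-set Pearson correlations, was Cd28 (0.95 over 10 arrays and 0.98 over 8). For Vegfa it was Inha (0.89 and 0.86), for Fndc5 Nefh (0.86 and 0.89), for Ntrk2 Kcnj16 (0.82 and 0.89) and for Ppargc1a Pcdha4 (0.85 and 0.88). For Igf1r it was Zfp950l7 (0.84 and 0.83), for Bdnf Rbm43 (0.76 and 0.86) and for Cntf Ror1 (0.85 and 0.73). Each is the highest of many values and is given as a description.

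In the families around the members, 7 lists with 115 tested genes, 0 genes passed between stress and control. Between exercised and stress rats 1 rose and 1 fell, 1.74% of the 115 against the 3.75% background. Both are from the list built around CNTF and its receptors. Il11ra1, a receptor chain for interleukin-11, rose by 0.23 (SE 0.05; limma adjusted p = 0.0375); it was at -2.55 in the stress rats of slide 3, -2.42 in those of slide 4 and -2.28 with exercise. Stat3, the transcription factor downstream of CNTF receptors, fell by 0.35 (difference -0.35, SE 0.06; limma adjusted p = 0.0346). Its level was -0.27 in the stress rats of slide 3, -0.58 in those of slide 4 and -0.72 with exercise.

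Between exercised and control rats 15 of the 115 rose and 10 fell, 21.7% against the 26.1% background. In the neurotrophin list 4 rose and 2 fell of 18. Ngfr, the low-affinity neurotrophin receptor gene, rose by 0.83 (limma adjusted p = 0.00684). It was at -3.33 in control, -2.65 in the stress rats of slide 3, -2.52 in those of slide 4 and -2.51 with exercise. In the IGF and insulin list 2 rose and 2 fell of 19. Igfbp7 and Igfbp1, which encode proteins that bind IGF or insulin, fell by 1.08 and 0.88. For Igfbp7 the stress rats of slide 4 had a mean of -4.02, close to -3.97 with exercise, while those of slide 3 had -3.00, near the control mean of -2.89. Igfbp1 had -4.71 in the stress rats of slide 4 and -4.69 with exercise, against -3.84 in those of slide 3 and -3.80 in control. In the VEGF list 1 of 19 rose, Vegfb, by 0.17. It was at -0.98 in control, -0.97 and -0.88 in the stress rats of slides 3 and 4, and -0.81 with exercise. The PGC1 and sirtuin list had 2 that rose and 1 that fell of 19, among them Pprc1, a relative of Ppargc1a, which rose by 0.22. Pprc1 was at -2.03 in control, -1.93 and -1.86 in the stress rats of slides 3 and 4, and -1.81 with exercise.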

How the data were processed

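The intensity values are processed signals from Agilent Feature Extraction, deposited by the authors and background-corrected by that program per the file headers. Its version is 12.1.0.3 in the headers and 9.1 in the submitters' processing notes. The labels give both 100 and 200 ng of RNA per rat, with integrity numbers above 7. The deposited series matrix, also intensity, equals the processed signal times 1 constant per array. Here log2 signal minus the array's 75th percentile over spots that are not controls was used; control and outlier spots were dropped and spots of a probe averaged. Probes were named by accession through RefSeq GRCr8 tables (21220 of 45598 matched).

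Probes well above background on at least 5 of 6 arrays of a group were tested (31289) with limma 3.58.1 in R 4.3.3 on all 18 arrays, group as the only term, Benjamini-Hochberg threshold 0.05. Each array is a separate rat per the labels. Exact permutation tests within slide sets were two-sided (scipy 1.17.1). Data were also simulated for stress against control over 31289 probes, with 100 changes of 0.5 and 100 of 1 on the log2 scale. The simulated noise was independent between arrays, so an effect of slide could not be tested. The outcome is not reported here. Alternatives changed scaling, filter, batch terms and samples left out. The normexp alternative used median signals with an offset of 50, as the mean signal column is not used here.

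Every probe of the 10 genes was named. For 7 pathway lists up to 4 genes past the threshold were eligible for each comparison, or the 1 with the smallest p, and not all are printed; some are not reported here. Members and lists were chosen with earlier results of these data known. Replicate numbers did not pair rats: same-numbered deviations had r between -0.246 and 0.188.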

Additional observations from a re-analysis of the deposited data

Results flagged for a closer look

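In 3 of 63 groups of 6 rats, 1 rat stood apart by Dixon's test at the 95% level, a rate that chance gives in about 1 of 20 groups. Igf1r probe 1 had a level of -0.45 in stress 4, above the next highest stress rat at -0.59. The same probe was at -0.79 in exercised rat 1, below the next at -0.62. Ntrk2 probe 5 was at -5.63 in exercised rat 1, below the next at -5.02.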

How the results depend on the processing

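Over all 20 probes and apart from fits without 1 rat, the difference changed sign in 37 of 320 values for stress against control, 30 of 320 for exercise against stress and 36 of 300 for exercise against control; the cause was not tested. The largest differences that changed sign were 0.11, 0.32 and 0.23 in size. The values below are a part of these changes, and others are not printed. Without 1 rat, signs changed in 27, 2 and 18 of 360 values. For exercise against stress, with slide set as a covariate and equally on slides 4 and 5 alone, Fndc5 probe 2 became 0.059, Igf1 probe 1 0.17, Igf1r probe 1 0.0024, Vegfa probe 2 -0.0028 and Vegfa probe 3 -0.015. In the same 2 settings Ntrk2 probe 2 became -0.036 and Ntrk2 probe 5 -0.015. On scan day 1 alone Fndc5 probe 2 was 0.19, Igf1 probe 1 0.20 and Vegfa probes 1 to 3 -0.081, -0.099 and -0.21, and on day 2 Igf1 probe 5 was -0.091. With slide as a random block Fndc5 probe 2 was 0.042 and Igf1 probe 1 0.0047; with normexp Igf1r probe 1 was 0.013; unscaled, Ntrk2 probe 1 was -0.027. For stress against control, Igf1 probe 1 was -0.0064 with normexp, -0.20 on scan day 1, -0.035 with scan day and -0.060 with slide as a block, and on scan day 1 Cntf was 0.045 and Igf1 probe 2 0.035. For exercise against control, Igf1 probe 1 was 0.36 with slide set as a covariate, Ppargc1a was 0.0098 with normexp and 0.043 on scan day 1, and Vegfa probe 1 was -0.073 on scan day 1. Other probes also changed sign there with slide set as a covariate. Among them were Vegfa probe 2 (-0.087), Vegfa probe 3 (-0.29), Igf1 probe 5 (0.22) and Fndc5 probe 2 (0.098).

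For exercise against stress, the member probes past the threshold, 1 in the report, numbered 0 with the 2 groups alone, no filter, the replicate block, scan day 1, slide as a random block, slide set as a covariate, slides 4 and 5 alone or unscaled, 2 with a strict filter, 3 with scan day as a block and 5 on scan day 2. By brightest probe the 0 genes became 1 with a strict filter and 2 with scan day as a block or on scan day 2. Over all probes the 1173 calls became 0 with the 2 groups alone, on scan day 1 or with slide as a random block, 2 with no filter, 2 with the replicate block, 3 on slides 4 and 5, 5 with slide set, 3109 with scan day as a block and 6910 on scan day 2. For exercise against control, member probes numbered 0 with slide as a random block, slide set or unscaled, 3 with the percentile over probes (an alternative chosen after seeing the data), quantile normalization or on scan day 1, and 4 with the 2 groups alone or scan day as a block. By brightest probe the 0 genes became 1 on either scan day and 2 with the 2 groups alone, the percentile over probes, quantile normalization or scan day as a block. The 8152 calls over all probes became 7 with slide set, 1758 with slide as a random block, 4847 and 5256 on scan days 1 and 2, and 5169 unscaled. For stress against control the 0 calls became 1 with slide set, 2 with quantile normalization, 467 with scan day as a block and 3265 on scan day 1. Scan day 1 set stress 5 and 6 on slide 4 against control 3 to 6 on slide 2. Calls higher with exercise than stress were 31.3% and 2.40% unscaled; against control 42.1%, 13.97% unscaled and 55.3% with quantile normalization.

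Without 1 rat, exercise against stress gave 1 to 4633 calls over all probes (4633 without stress 5, 4178 without stress 6), 0 to 3 member probes and 0 to 2 genes; exercise against control gave 1 to 3 member probes and 0 to 2 genes. Igf1 probe 1 ranged from -0.022 to 0.11 for stress against control, Igf1 probe 5 from -0.012 to 0.22 and Igf1r probe 1 from -0.051 to 0.0026 for exercise against stress, and Bdnf from -0.018 to 0.14 for exercise against control. The 6 rats in each group limit the precision. Replicate numbers did not pair rats, and the replicate block is reported for completeness.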
